A study of Mus musculus with 18 samples.

Results

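The 36 genes described here are rod and cone photoreceptor genes, taken as a fixed list of symbols and looked up by Ensembl identifier among the 55416 gene identifiers measured in laser-captured mouse optic nerve head. All 36 were matched. By general knowledge of the retina, 10 were classed as rod genes, 6 as cone genes, 19 as genes of rods and cones alike, and 1, Gnb1, as widely expressed. Their level in each library is a measure of photoreceptor RNA in tissue that should hold no photoreceptor cell bodies.

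RNA was sequenced from optic nerve head that had been cut out of tissue sections with a laser under a microscope (laser capture). It compared B6.EDA+/+ mice with C57BL/6J control mice at 12 and 22 months of age. In B6.EDA+/+ mice the extra domain A (EDA) exon of fibronectin is, by design, always included. At 22 months 3 libraries were labelled EDA and 5 control, and at 12 months 5 and 5. No treatment is given for any group. Nothing in the labels says that libraries came from different animals, so p-values here reflect only library-to-library spread, part or all of which could be technical. Libraries are named here by labelled group, age and a number in accession order, which pairs nothing.

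Rods and cones detect light in their outer segments. Light-activated visual pigment switches on transducin, a G protein, which switches on phosphodiesterase 6. That enzyme lowers cyclic GMP and closes cyclic nucleotide-gated channels, and guanylate cyclase with its calcium-sensing activators restores the cyclic GMP. Rods and cones mostly use paired versions of these proteins, encoded by separate genes. The optic nerve head is where ganglion cell axons leave the eye; it is rich in astrocytes and borders the retina.

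Library totals ran from 13097498 to 18488733 expected counts, so 3 reads, the limit that a count of 0 allows, corresponded to 0.162 to 0.229 CPM, counts scaled to a library total of 1000000. Astrocyte and oligodendrocyte markers were present throughout, with Gfap at 5353 CPM or more and the oligodendrocyte list at 331 CPM or more in every library. The estimated share of fibronectin transcripts holding the EDA exon did not separate the labelled genotypes. At 22 months it ran from 0% to 12.6% in the EDA libraries and from 0% to 100% in the controls. At 12 months it ran from 0% to 58.5% and from 0% to 96.2%. The share was taken over 8 annotated isoforms that span the exon, 4 of which hold it. Such a split between isoforms is an estimate, so these values do not test the labels. Groups are called by their labels. Some libraries stood apart: 22-month control replicate 2 in photoreceptor genes, 22-month EDA replicate 1 in skeletal muscle genes, and 12-month EDA replicate 4 in astrocyte genes. The oligodendrocyte list was also uneven. It summed to 29667 CPM in 22-month control replicate 3 and 27870 CPM in 12-month EDA replicate 3, against at most 8905 CPM elsewhere. These libraries were kept where the 3 named first are left out together. In bulk tissue, fewer cells of a type and less RNA per cell cannot be told apart.

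The rod genes were high in 1 library. In 22-month control replicate 2 the 10 rod genes summed to 861 CPM (95% Clopper-Pearson interval 846 to 877, counting error only). The other 22-month controls held 1.94, 1.98, 2.15 and 0.355 CPM, the last being the lowest of all libraries. The 22-month EDA libraries held 34.1, 2.07 and 10.6 CPM. At 12 months the EDA libraries held 2.32, 15.7, 0.974, 3.70 and 18.7 CPM, and the controls 11.3, 6.34, 3.91, 4.73 and 2.59 CPM. The groups overlapped, and the library that stood apart was 25.2 times the next highest, 22-month EDA replicate 1 (95% counting interval 23.1 to 27.7). The median of the other 17 libraries was 3.70 CPM.

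The 19 genes shared by rods and cones followed the same order at the top. They summed to 1050 CPM in 22-month control replicate 2 and to between 1.99 and 55.8 CPM in the other 17, with a median of 16.5 CPM. In the 22-month EDA libraries this sum was 36.5, 34.7 and 55.8 CPM, above all 5 12-month EDA libraries (8.60 to 30.3 CPM) and above the other 4 22-month controls (8.66 to 27.1 CPM). In the deposited TPM the ages overlapped, with 17.9 TPM in the lowest 22-month EDA library and 18.7 TPM in the highest 12-month one. Rbp3 alone gave 16.5 to 23.5 CPM of the summed CPM in the 22-month EDA libraries. The share of all genes that separate these groups as fully was not counted. No test was made of a sum over the list.

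The 6 cone genes set that library apart far less. Their sum was 15.0 CPM there, which was the third highest (the second with TMM totals or without the most abundant transcript and mitochondrial genes in the total, the 6th in TPM). The highest was 25.4 CPM in 22-month EDA replicate 3 and the next 16.2 CPM in 12-month control replicate 3, a ratio of 1.57 with a counting interval of 1.32 to 1.85. The lowest was 0 in 12-month control replicate 2, where 3 reads would be 0.229 CPM. In most libraries the cone sum came from 1 gene, Opn1sw. Without it the sum was 7.66 CPM in 22-month control replicate 2 and at most 2.04 CPM elsewhere.

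**Figure D1:**
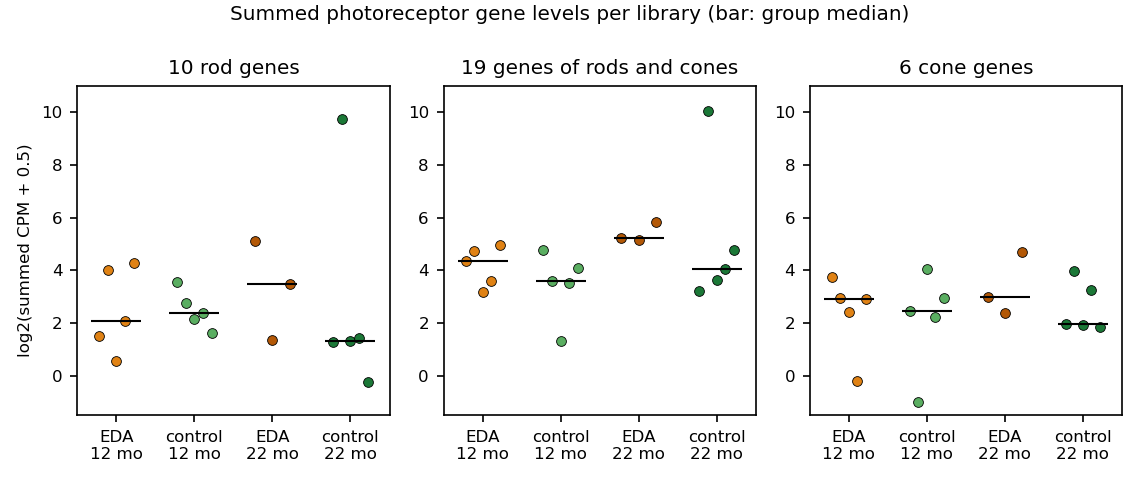
Summed CPM of the rod genes, the genes of rods and cones, and the cone genes, as log2(CPM + 0.5) on the vertical axis, with 1 point per library, the 4 labelled groups along the horizontal axis and a bar at each group's median. The rod sum of 861 CPM and the shared sum of 1050 CPM in 22-month control replicate 2 lie far above all other points, while its cone sum of 15.0 CPM lies within their range.

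Counted gene by gene, 25 of the 33 members that reached 3 reads in some library were highest in 22-month control replicate 2. Among all 22853 genes that reached 3 reads in some library, 5.32% were highest there. The library was picked by the summed level of the rod members, so an excess of members there is partly built in. With the total taken without the most abundant transcript and mitochondrial genes the count was 26, against 8.51% of all genes. The 25 comprised 9 of 10 rod genes, 14 of 19 shared genes, 1 of 6 cone genes and Gnb1. Members without Gnb1 took 0.193% of the reads of that library, a sum of 1927 CPM against 14.0 to 91.8 CPM elsewhere. Gngt1, Pde6c and Arr3 were at 0 in all 18 libraries, and only Gnat1, Rom1 and Gnb1 had reads in every library. The members above 0 only in 22-month control replicate 2 were Pde6a, Cngb1, Rp1l1, Rdh12, Impg2 and Aipl1.

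Ranked by CPM + 0.5 in that library over the highest value elsewhere, the members also lay at the top of the whole transcriptome. Of the 7471 genes with at least 5 CPM in 22-month control replicate 2, 27 had a ratio of at least 5, and 14 of these 27 were members. Members made up 9 of the first 20 genes. These counts too follow in part from picking the library by its rod sum. Of the non-members named by that ranking, the 9 reported here had levels of 5.97 to 22.2 CPM. Fscn2, an actin-bundling protein of photoreceptors, had 5.97 CPM and was at 0 in the other 17 libraries. Pcare, a photoreceptor cilium protein, had 13.1 CPM against at most 1.29 CPM. Gmfg and Lhx9 had 12.5 and 7.73 CPM and were at 0 elsewhere. The others were Mkln1os, Kbtbd3, Ccnb1, Tcim and Cenpw.

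**Figure D2:**
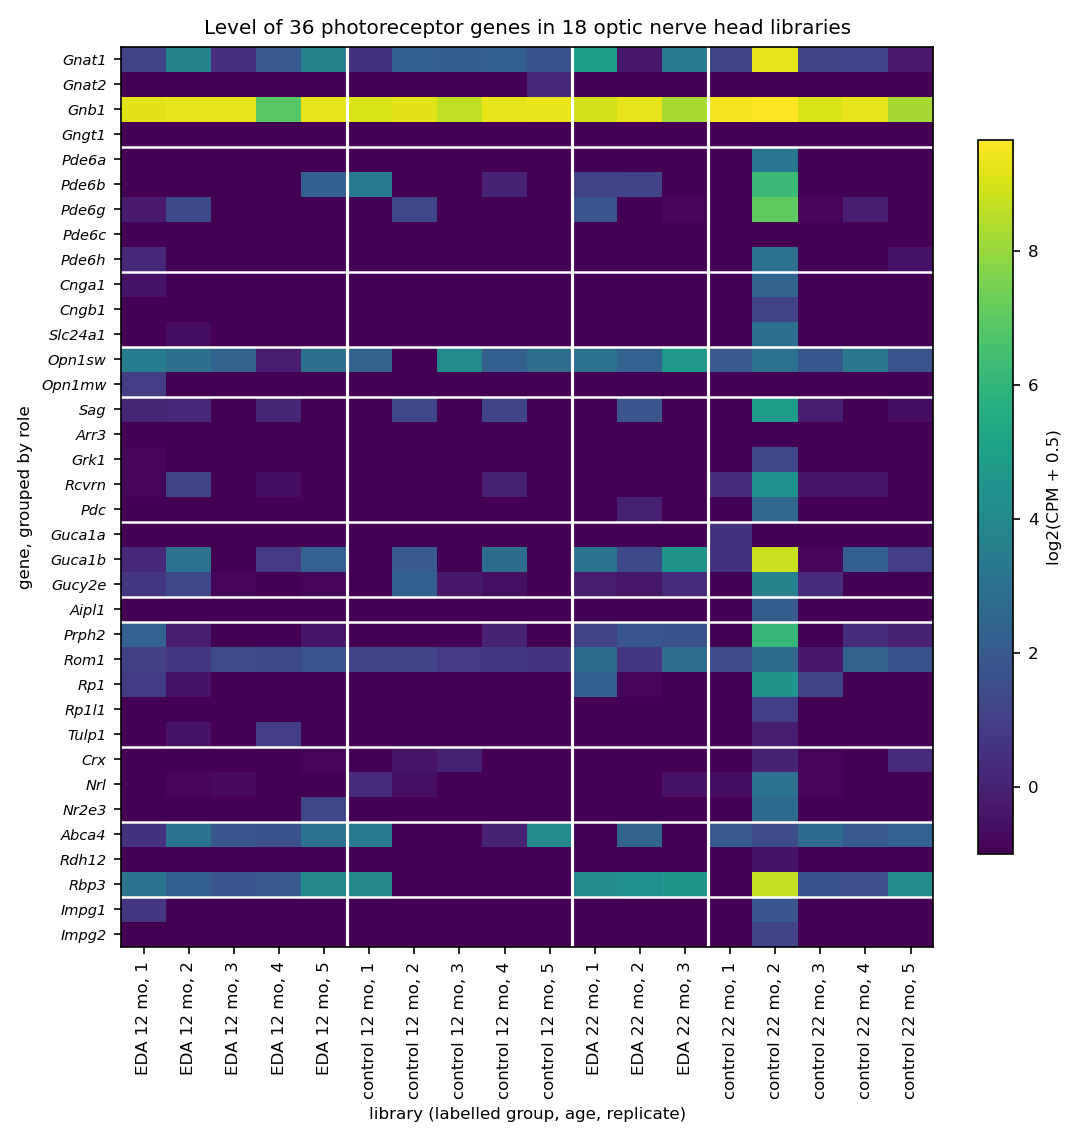
Level of each of the 36 genes (rows, grouped by role) in each of the 18 libraries (columns, by labelled group, age and replicate), coloured by log2(CPM + 0.5). The column of 22-month control replicate 2 is the brightest for 25 genes; Gnb1 is bright in every column, and Opn1sw is above 0 in 17 of 18.

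Transducin was represented by Gnat1 (ENSMUSG00000034837), the alpha subunit of rods. Gnat1 had 8393 reads in 22-month control replicate 2 and 26, 29, 27 and 5 in the other 22-month controls. The 22-month EDA libraries had 438, 4 and 138 Gnat1 reads. At 12 months Gnat1 had 25, 192, 16, 50 and 180 reads in the EDA libraries and 15, 55, 59, 76 and 42 in the controls. The groups overlapped, and 618 CPM in the highest library was 20.8 times the 29.7 CPM of the next. Without that library, the 22-month controls averaged 1.43 ± 0.720 CPM (SD, n = 4), against 3.18 ± 1.41 CPM (SD, n = 5) in the 12-month controls.

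The cone counterpart Gnat2 was detected in 1 library, 12-month control replicate 5, with 11 reads (0.677 CPM), and had 0 reads in 22-month control replicate 2. Gngt1, the rod gamma subunit, was at 0 everywhere, although its partner Gnat1 was found in every library. Gnb1 (ENSMUSG00000029064), a beta subunit used by rods and by many other cells, ran from 119 CPM in 12-month EDA replicate 4 to 808 CPM in 22-month control replicate 2. The next highest Gnb1 level was 712 CPM, in 22-month control replicate 1, so the gene barely set the library apart. Its transcript Gnb1-209 did: 418 reads fell on it there and 0 to 23.1 elsewhere.

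Phosphodiesterase 6 is built in rods from catalytic subunits encoded by Pde6a and Pde6b and an inhibitory subunit encoded by Pde6g. Pde6g (ENSMUSG00000025386) had the largest step of all members with reads in several libraries: 131 CPM in 22-month control replicate 2 and at most 2.85 CPM elsewhere, a 45.9-fold difference. It had 1777 reads there, 42, 0 and 1 in the 22-month EDA libraries, and 0, 1, 7 and 0 in the other 22-month controls. At 12 months it had 5, 31, 0, 0 and 0 reads in the EDA libraries, and 26 reads in control replicate 2 with 0 in the other 4.

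Pde6b had 1046 reads (77.0 CPM) in 22-month control replicate 2, which was 8.01 times the next library, 12-month control replicate 1 with 149. It was at 0 in all other 22-month controls and was seen in 2 of the 3 22-month EDA libraries, with 23 and 24 reads. Pde6a had 116 reads in 22-month control replicate 2 and none elsewhere, at least 37.3-fold higher with 3 reads per library as the floor. The cone catalytic subunit Pde6c was at 0 throughout. The cone inhibitory subunit Pde6h had 104 reads in 22-month control replicate 2, 9 in 12-month EDA replicate 1 and 3 in 22-month control replicate 5, so it was the 1 cone gene with the rod pattern. Of the Pde6h reads in the highest library, 96.4% were assigned to Pde6h-202, a transcript of 5940 bases, and 136 of its 7846 exon bases are shared with Arhgdib on the opposite strand. The libraries keep no strand, so reads in shared bases cannot be told apart.

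The channel and exchanger genes of rods were nearly confined to that library. Cnga1, the alpha subunit of the rod channel, had 67 reads there and 3 in 12-month EDA replicate 1. Slc24a1, the sodium, calcium and potassium exchanger of the rod outer segment, had 91 reads there and 2 in 12-month EDA replicate 2. Cngb1, the beta subunit of the rod channel, had 22 reads there and 0 in the other 17, at least 7.07-fold higher.

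The cone opsins behaved unlike the rod genes. Opn1sw (ENSMUSG00000058831), the short-wavelength opsin, had 100 reads in 22-month control replicate 2 and 49, 52, 143 and 40 in the other 22-month controls. It had 110, 63 and 339 reads in the 22-month EDA libraries. At 12 months it had 154, 104, 89, 5 and 101 reads in the EDA libraries and 76, 0, 245, 75 and 105 in the controls. All 4 groups overlapped, and 22-month control replicate 2 (7.37 CPM) sat within the range of the rest, 0 to 25.4 CPM. Opn1mw, the middle-wavelength opsin, was seen only in 12-month EDA replicate 1, with 20 reads.

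The Opn1sw level has a limit of its own. Of its 2557 exon bases, 397 (15.5%) lie opposite exons of Calu, a widely expressed calcium-binding protein gene that had 6.44 to 83.2 CPM in these libraries. How far Calu reads entered the Opn1sw counts was not tested. Calu and Opn1sw did not share their order: Calu was highest in 22-month control replicate 4 and Opn1sw in 22-month EDA replicate 3, where Calu was at 28.7 CPM. Both were low in 12-month EDA replicate 4, with 6.44 CPM of Calu and 0.370 CPM of Opn1sw.

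The genes that end the light response followed the rod pattern. Sag, the arrestin that binds activated pigment, had 28.7 CPM in 22-month control replicate 2 and at most 2.96 CPM elsewhere (22-month EDA replicate 2). Rcvrn, the calcium sensor that restrains the pigment kinase, had 284 reads there, at most 24 elsewhere and 0 in all 3 22-month EDA libraries. Pdc, which binds transducin beta and gamma subunits, had 75 reads there, 6 in 22-month EDA replicate 2 and 0 in the rest. Grk1, the pigment kinase, had 26 reads there and 1 in 12-month EDA replicate 1. The cone arrestin Arr3 was at 0 in every library.

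Among the cyclase genes, Guca1b (ENSMUSG00000023979), a calcium-sensing activator of retinal guanylate cyclase, had the most reads of any member after Gnat1 and Gnb1 in 22-month control replicate 2. It had 6019 reads (443 CPM) in 22-month control replicate 2 and 14, 1, 63 and 20 in the other 22-month controls. The 22-month EDA libraries had 120, 28 and 299 Guca1b reads, or 10.9 ± 10.4 CPM (SD, n = 3). At 12 months it had 9, 110, 0, 16 and 67 reads in the EDA libraries and 0, 48, 0, 114 and 0 in the controls. The highest library was 19.8 times the next, 22-month EDA replicate 3, and the remaining values of the 4 groups overlapped. Its neighbour in function, Guca1a, was at 0 in that library and had reads only in 22-month control replicate 1, with 14. Gucy2e, the cyclase itself, had 12.6 CPM in 22-month control replicate 2, 3.11 times the 4.05 CPM of 12-month control replicate 2. Aipl1, a chaperone needed for phosphodiesterase 6, had 52 reads in 22-month control replicate 2 and 0 in all others, at least 16.7-fold higher.

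**Figure D3:**
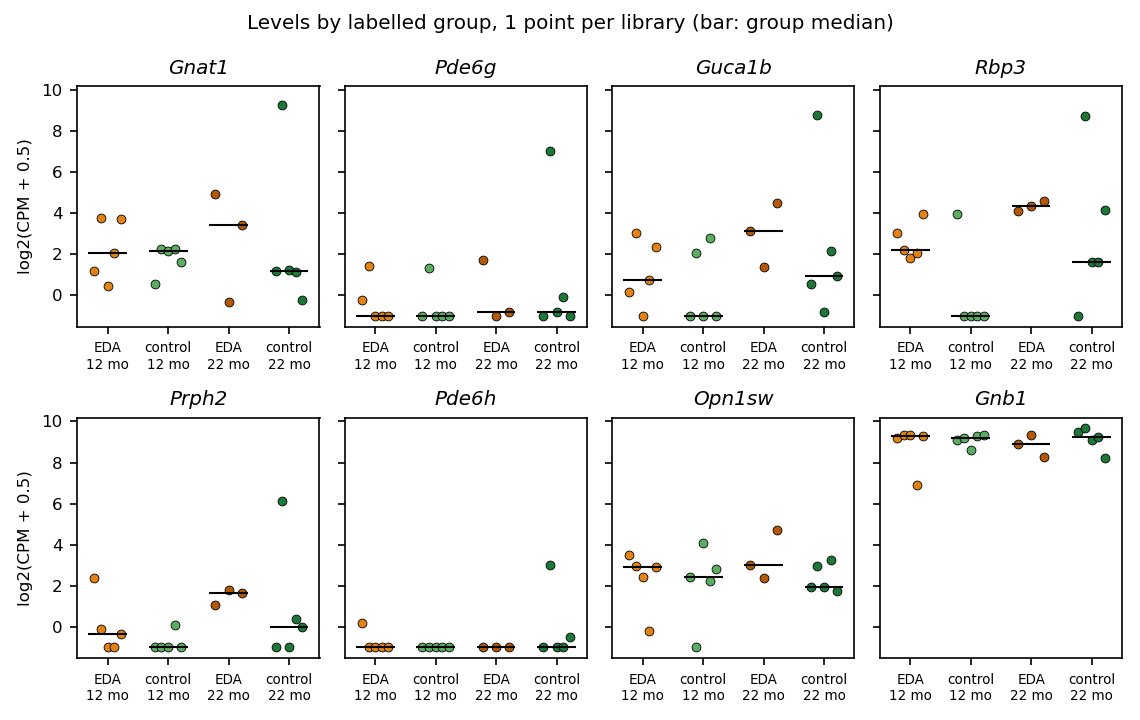
Level of 8 photoreceptor genes as log2(CPM + 0.5), 1 point per library, with the 4 labelled groups along the horizontal axis and a bar at each group's median. Gnat1, Pde6g, Guca1b, Rbp3, Prph2 and Pde6h each have 1 point far above the rest among the 22-month controls (618, 131, 443, 425, 69.0 and 7.66 CPM), whereas Opn1sw and Gnb1 have none.

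Outer segment structure genes were divided. Prph2 (ENSMUSG00000023978), the tetraspanin of the disc rim, had 937 reads in 22-month control replicate 2 and 0, 0, 13 and 7 in the other 22-month controls. The 22-month EDA libraries had 23, 40 and 35 Prph2 reads, the 12-month EDA libraries 66, 6, 0, 0 and 4, and the 12-month controls 10 reads in replicate 4 alone. The step to the next library was 14.8-fold. Rom1, the partner of Prph2 at the disc rim, showed no such step: it had 5.97 CPM in 22-month control replicate 2 against 6.45 CPM in 22-month EDA replicate 3, and between 0.320 and 6.45 CPM over the other 17. Rp1, a microtubule protein of the axoneme, had 317 reads in 22-month control replicate 2, 59 in 22-month EDA replicate 1 and 0 in all 12-month controls. Rp1l1, its relative, had 20 reads in 22-month control replicate 2 and 0 elsewhere. Tulp1, a protein of photoreceptor transport, was highest in 12-month EDA replicate 4, with 19 reads against 5.

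The transcription factors were scarce. Nrl, the factor that sets rod fate, had 102 reads in 22-month control replicate 2, 11 in 12-month control replicate 1 and 3 or fewer elsewhere. Nr2e3, which represses cone genes in rods, had 83 reads there and 27 in 12-month EDA replicate 5, and was at 0 in the rest. Crx, the homeobox factor of rods and cones, had 7 reads there and 10 in 22-month control replicate 5, so it did not share the step.

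The 250 bases upstream of the starts of the members were searched for the letters of short motifs on either strand. These were TAATCC, a core site of CRX, and TGCTGA, a core of the Maf-type element that NRL can bind. RefSeq windows on GRCm38.p6 were at hand for 28 members. TAATCC occurred in 11 of the 28 member windows and in 6.25% of the 32851 windows of that length. TGCTGA occurred in 6 of the 28 and in 16.1% of all windows. Both occurred in 3 of the 28, Aipl1, Rbp3 and Sag, and in 0.962% of all windows. By class, TAATCC was found in 3 of 7 rod windows and 1 of 5 cone windows. A match describes letters and not binding. The list was fixed as photoreceptor genes, so these counts describe the list and not the libraries. The windows of Rbp3 and Sag, which hold both motifs, are shown with those of Pde6b, the rod gene of highest level with a window, and Opn1sw, the cone gene of highest level. The 4 were picked after their levels were seen. Capitals mark a match to either motif on either strand, and each sequence is written 5′ to 3′ on the gene's strand.
Rbp3 (chr14:33953753-33954002, plus strand): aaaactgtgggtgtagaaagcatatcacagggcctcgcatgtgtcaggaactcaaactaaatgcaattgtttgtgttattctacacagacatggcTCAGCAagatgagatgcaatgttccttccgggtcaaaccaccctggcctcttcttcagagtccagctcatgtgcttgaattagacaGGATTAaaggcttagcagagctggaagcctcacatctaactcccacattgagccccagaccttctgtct
Sag (chr1:87803430-87803679, plus strand): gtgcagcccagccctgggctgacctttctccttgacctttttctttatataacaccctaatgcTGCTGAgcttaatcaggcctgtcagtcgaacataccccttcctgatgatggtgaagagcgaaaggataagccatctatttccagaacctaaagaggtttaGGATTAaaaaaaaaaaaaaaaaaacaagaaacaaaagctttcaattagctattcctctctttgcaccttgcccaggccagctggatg
Pde6b (chr5:108388123-108388372, plus strand): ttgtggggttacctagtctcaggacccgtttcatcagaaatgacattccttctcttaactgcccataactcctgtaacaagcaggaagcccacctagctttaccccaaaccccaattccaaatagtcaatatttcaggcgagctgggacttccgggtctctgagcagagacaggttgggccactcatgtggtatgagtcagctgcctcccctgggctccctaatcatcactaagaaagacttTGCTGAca
Opn1sw (chr6:29380514-29380763, minus strand): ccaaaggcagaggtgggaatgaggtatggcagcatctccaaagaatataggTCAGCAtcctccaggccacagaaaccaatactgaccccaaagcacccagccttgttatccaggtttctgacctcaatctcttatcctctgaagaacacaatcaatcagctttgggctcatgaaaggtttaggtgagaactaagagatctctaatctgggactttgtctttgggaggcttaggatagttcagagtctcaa

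Among the retinoid genes, Rbp3 (ENSMUSG00000041534), which encodes the retinoid-binding protein secreted into the space around outer segments, had 5774 reads (425 CPM) in 22-month control replicate 2 and 0, 41, 40 and 241 in the other 22-month controls. Its 22-month EDA libraries were alike, with 243, 271 and 314 reads, between 16.5 and 23.5 CPM. The 12-month EDA libraries had 110, 60, 55, 49 and 213 Rbp3 reads, and the 12-month controls 231 in replicate 1 and 0 in the other 4. The lowest 22-month EDA library (16.5 CPM) lay above the highest library of either 12-month group (14.9 CPM), while the 22-month controls overlapped it. Rbp3 is part of the sum over the genes of rods and cones, so the 2 separations are not separate results. The share of all genes that separate as fully was not counted. Between EDA ages, edgeR's quasi-likelihood test, described below, gave an unadjusted p of 0.354 for Rbp3. Abca4, the retinoid transporter of the disc rim, did not follow: it had 2.36 CPM in 22-month control replicate 2 and was highest in 12-month control replicate 5, at 15.5 CPM. Rdh12, a retinol dehydrogenase, had 3 reads in 22-month control replicate 2 and none elsewhere. Of the matrix genes, Impg1 had 43 reads there and 16 in 12-month EDA replicate 1, and Impg2 had 24 there and 0 elsewhere.

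On a scale that allows for transcript length, the deposited TPM, the members in 22-month control replicate 2 were led by Gnat1 at 742 TPM. Gnb1 followed at 420, Guca1b at 392 and Pde6g at 224 TPM. Rbp3, with nearly as many reads as Guca1b, had 112 TPM, since its transcript is longer. Prph2 stood at 53.5, Sag at 41.8 and Pde6b at 39.1 TPM. Within phosphodiesterase 6, the level of Pde6b was above that of Pde6a (4.36 TPM), although the proteins act as a pair. The highest cone gene by this scale was Opn1sw, at 8.38 TPM. Pde6h had 3.17 TPM.

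Reads of the members other than Gnb1 fell mostly on protein-coding transcripts: 83.7% in 22-month control replicate 2 and 73.1% to 97.0% in the other 17. The transcript split of each gene is estimated. Rbp3 reads fell on its coding transcript, and 98.6% of Guca1b reads on Guca1b-201. Gnat1 reads divided between coding Gnat1-201 (61.8%) and the processed transcript Gnat1-206 (31.4%). Of the Prph2 reads, 43.6% were assigned to the retained-intron transcript Prph2-202. Sag reads in that library fell on Sag-205, Sag-208, Sag-203 and Sag-206 (37.3%, 30.7%, 25.9% and 6.16%), none of which is coding. All 26 Grk1 reads and 78.7% of the Nr2e3 reads were likewise assigned to retained-intron transcripts.

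The groups were then compared gene by gene with edgeR's quasi-likelihood test over 15118 genes. Of the 36 members, 14 passed the filter on low counts: Gnat1, Pde6b, Pde6g, Opn1sw, Prph2, Rom1, Rp1, Sag, Rcvrn, Guca1b, Gucy2e, Abca4, Rbp3 and Gnb1. Without 22-month control replicate 2, 13 passed and Rcvrn did not. Several had most of their reads in that library, so their counts support nothing on their own. No member passed an adjusted p of 0.05 in any of 5 contrasts, and 0% of all genes did. Limma with sample quality weights called 1 gene in the EDA contrast at 22 months, 2 at 12 months and 1 in the interaction. Of the members 0 passed by it. By DESeq2 1 did, Rp1, in the EDA contrast at 12 months (adjusted p = 0.000116, 0.112% of all genes higher), the age contrast of controls (adjusted p = 6.84e-08, 0.0926% higher) and the interaction (adjusted p = 0.028, 0.165% lower). In each of them Rp1 was at 0 in all 12-month controls, and it reached 3 reads in 2 of the 5 12-month EDA libraries. DESeq2 gave no p-value for 9 of the 14 members, among them Gnat1, Guca1b, Rbp3 and Prph2.

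The contrast that asks how the controls differed with age held the largest values. Between 22-month and 12-month controls, 7 of the 14 members were higher at an unadjusted p under 0.05 and 0 were lower, whereas 2.14% of all genes were higher and 1.37% lower at that level. The 7 were Gnat1, Prph2, Rp1, Guca1b, Rbp3, Rcvrn and Pde6g. Gnat1 was higher by 5.49 ± 1.72 on the log2 scale (edgeR estimate ± SE, unadjusted p = 0.00467, adjusted p = 1). Prph2 was higher by 7.07 ± 2.26 (unadjusted p = 0.00524, adjusted p = 1). Rp1 was at 0 in all 12-month controls, so its difference is a lower bound, at least 21.8-fold with 3 reads in the smallest library as the floor. Over the 14 members 12 values were above 0 (51.5% of all genes), with a median log2 difference of 4.14, or 3.81 with Rp1 at its bound, against 0.02 over all genes. These values depend on which members pass the filter. Fitting only the control libraries left 7 members, 2 of them higher at an unadjusted p under 0.05 (97 of 11899 genes). Their median was 1.27 against 0.02. With a filter at a mean of 1 log2 CPM, 5 passed and 2 were higher at that level (65 of 9136 genes), with a median of 1.28.

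Without 22-month control replicate 2 most of these values were smaller or turned. That library was picked by its rod sum. Leaving it out therefore lowers the 22-month controls in these genes by construction, here and in the contrasts below. Of the 13 members that then passed the filter, 4 had values above 0 (50.6% of all genes), and the median was -0.33 against 0.01. The Gnat1 difference became -1.16 ± 1.00 (unadjusted p = 0.262), and that of Guca1b -0.33 ± 1.62. Prph2 stood at 1.48 ± 1.87 and Rbp3 at 0.91 ± 1.59. At an unadjusted p under 0.05, Rp1 was higher (1.99% of all genes) and Pde6b was lower (1.18% of all genes). Each had a group at 0, and their bounds were at least 1.82-fold higher and at least 8.83-fold lower.

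The contrast between EDA-labelled and control-labelled libraries at 22 months changed sign with the same library. With all libraries, 2 of 14 members were above 0 (46.2% of all genes), with a median of -2.70 against -0.07 over all genes. Gnat1 stood at -3.51 ± 1.94 (unadjusted p = 0.0855, adjusted p = 1). Rcvrn, at 0 in all 22-month EDA libraries, was the 1 member with an unadjusted p under 0.05 (2.09% of all genes were higher and 1.87% lower at that level), at least 19.4-fold lower. Without 22-month control replicate 2 that bound was 1.39-fold, and Rcvrn could not be fitted. Without 22-month control replicate 2, 11 of 13 members were above 0 (46.4% of all genes), with a median of 1.83 against -0.06. Gnat1 then stood at 3.14 ± 1.15 (unadjusted p = 0.0131, adjusted p = 1). Pde6b was the other member at an unadjusted p under 0.05 (1.53% of all genes were higher and 1.8% lower at that level), at least 4.85-fold higher, since the remaining controls were at 0. Rbp3 stood at 1.83 ± 1.81 and Prph2 at 2.86 ± 2.18. Dropping the control library with the largest rod sum moves such values upward by construction. The counts and p-values without it are thus no separate result on EDA. With limma's quality weights and all libraries, 11 of 14 members were above 0 (7557 of 15118 genes), with a median of 0.54 against -0.0004. From the edgeR values 9 of 14 changed sign. This contrast and the age contrast share the 22-month controls, so their values are not independent of each other.

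**Figure D4:**
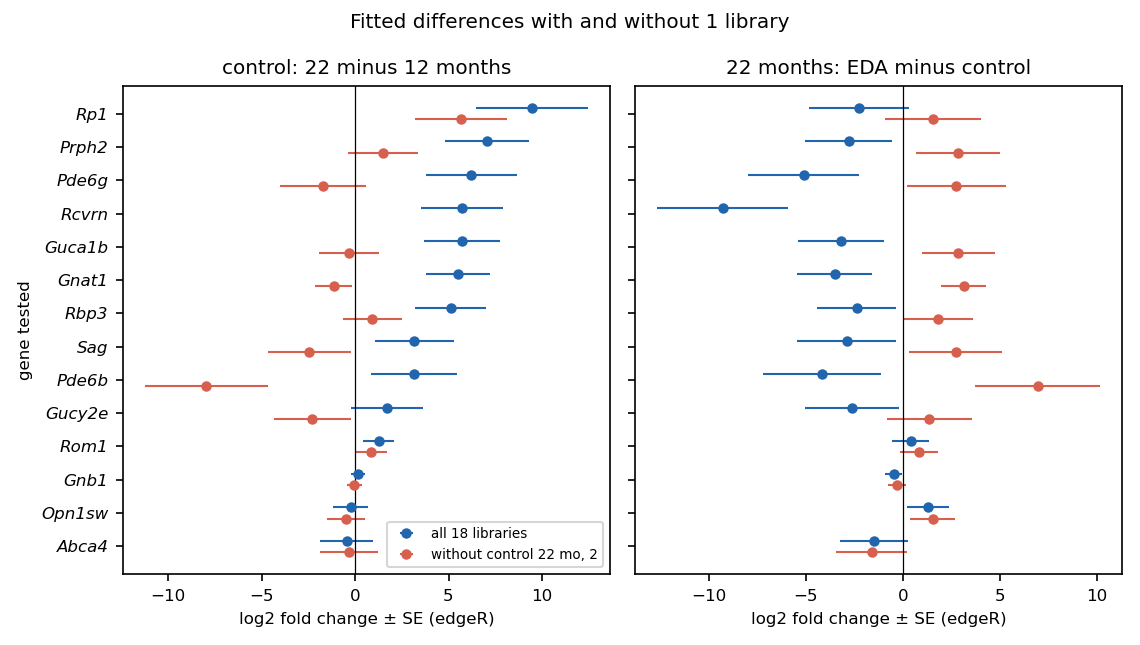
Fitted log2 fold change ± SE of the tested members, with all 18 libraries (blue) and without 22-month control replicate 2 (red), for the age contrast in controls (left) and the EDA contrast at 22 months (right). Gnat1 goes from 5.49 to -1.16 in the first and from -3.51 to 3.14 in the second; Opn1sw, Rom1, Gnb1 and Abca4 keep their side of 0 apart from Gnb1 in the first. Rcvrn has no red point because it no longer passed the filter.

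The EDA contrast at 12 months does not involve that library. With edgeR, 0 members had an unadjusted p under 0.05 (2.96% of all genes were higher and 1.59% lower), and 8 of 14 were above 0 (49.5% of all genes). The median was 0.27, against -0.01 over all genes, and with limma's quality weights it was 1.41 against 0.12. Rbp3 stood at 1.02 ± 1.64 by edgeR and at 5.77 ± 1.82 by limma (unadjusted p = 0.00472). Gnat1 stood at 0.87 ± 1.45, Prph2 at 3.01 ± 1.93 and Pde6b at -1.38 ± 2.21. Rp1, at 0 in the controls, was at least 1.35-fold higher. When 22-month control replicate 2 was left out of the shared estimate of spread, Rp1 had an unadjusted p of 0.0457 by edgeR, 2.99% of all genes being higher and 1.59% lower at that level, and 7 of 13 members were above 0 (49.4% of all genes).

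Between 22-month and 12-month EDA libraries, 10 of 14 members were above 0 (47.1% of all genes), with a median of 1.18, and 0 had an unadjusted p under 0.05 (2.6% of all genes were higher and 2.38% lower). Without the 3 libraries that stood apart, 6 of 14 were above 0 (6788 of 15841 genes), with a median of -0.18 against -0.17 over all genes. With all libraries Rom1 stood at 1.34 ± 0.93, Opn1sw at 1.25 ± 1.07, Rbp3 at 1.72 ± 1.81 and Abca4 at -1.52 ± 1.74. In the interaction, which asks whether the EDA difference changed with age, 2 of 14 were above 0 (47.2% of all genes), with a median of -3.08. Rcvrn was the 1 member with an unadjusted p under 0.05 (1.54% of all genes were higher and 2.48% lower at that level), and its value rests on the 22-month EDA group at 0. Without 22-month control replicate 2 the interaction median was 1.73, and 9 of 13 were above 0 (47.7% of all genes). Pde6b, at 0 in the remaining 22-month controls, was then the 1 member with an unadjusted p under 0.05 (1.34% of all genes were higher and 2.46% lower). These values too follow in part from leaving out the library with the largest rod sum.

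Other photoreceptor genes, listed separately, went partly with the members. The 34 matched summed to 488 CPM in 22-month control replicate 2, the second highest after 525 CPM in 12-month EDA replicate 4, and the highest in TPM or with TMM totals. Of these genes 10 of the 30 that reached 3 reads in some library were highest there. Reep6, a rod trafficking protein, had 123 CPM there against at most 39.3. Mef2d, the other gene of highest level in the list and a widely expressed factor, had 93.3 CPM and ranked 17th. The cone channel gene Cnga3 was at 0 in all libraries, and Cngb3 was at 0 in that library; these and Car14 below were picked after their values were seen. Of the 18 tested in the age contrast of controls, 0 were called (0% of all genes). At an unadjusted p under 0.05, 5 were higher (2.14% of all genes), of which Rorb, Cdhr1 and Otx2 are named here. Without 22-month control replicate 2 there was 1 of 17 (1.99% of all genes).

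Markers of other retinal cells did not follow the rod genes. In 22-month control replicate 2 the summed CPM of 4 lists was the lowest of all 18 libraries, but with other totals these lists ranked between 14th and 18th, and on no scale were they among the highest. Bipolar cell genes summed to 22.7 CPM there against 23.4 to 76.7 in the others, with 11 of 14 at 0 (6 to 11 in the others), among them Cabp5, Grm6, Vsx1, Trpm1 and Pcp2. Amacrine and horizontal cell genes summed to 30.3 CPM against 33.3 to 168, with 10 of 14 at 0 (6 to 11 in the others), among them Gad1, Gad2 and Slc32a1. Müller glia genes summed to 3089 CPM against 3589 to 10456, with 0 of 11 at 0, and Car14 was highest in that library. The Müller glia list, like the astrocyte list, was highest in 12-month EDA replicate 4. How far astrocytes carry the Müller glia sum was not tested. Retinal ganglion cell genes summed to 122 CPM against 152 to 335, with 4 of 13 at 0 (0 to 8 in the others). Cabp5 and Slc32a1 were at 0 in every library. The genes of highest level in these lists there were Prkca (16.8 CPM) and Gpr179 (4.64), Pax6 (19.9) and Slc6a9 (8.25), Dkk3 (997) and Slc1a3 (908), and Nefh (53.4) and Nefl (29.9 CPM). Pigment epithelium genes ranked 11th, with 32.2 CPM against 9.05 to 81.4. Of these 14 genes 10 were at 0 there (9 to 12 in the others), among them Rpe65, Lrat and Rgr, and 1 was highest in that library.

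Library composition varied as well. A single identifier without a symbol, ENSMUSG00000119584, took 32.8% of the reads of 22-month control replicate 2, the highest share, but 12-month control replicate 5 came close, 22-month control replicate 1 had 28.2%, and the lowest was 3.26%. Its astrocyte sum ranked 14th (8332 CPM) and its oligodendrocyte sum 15th (857 CPM). The library with the next highest rod sum, 22-month EDA replicate 1, held 352 CPM of skeletal muscle genes, the highest of all libraries, while 22-month control replicate 2 held 6.04 CPM. The part of these differences in the photoreceptor levels was not tested, and the origin of the photoreceptor reads was not tested.

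**Figure D5:**
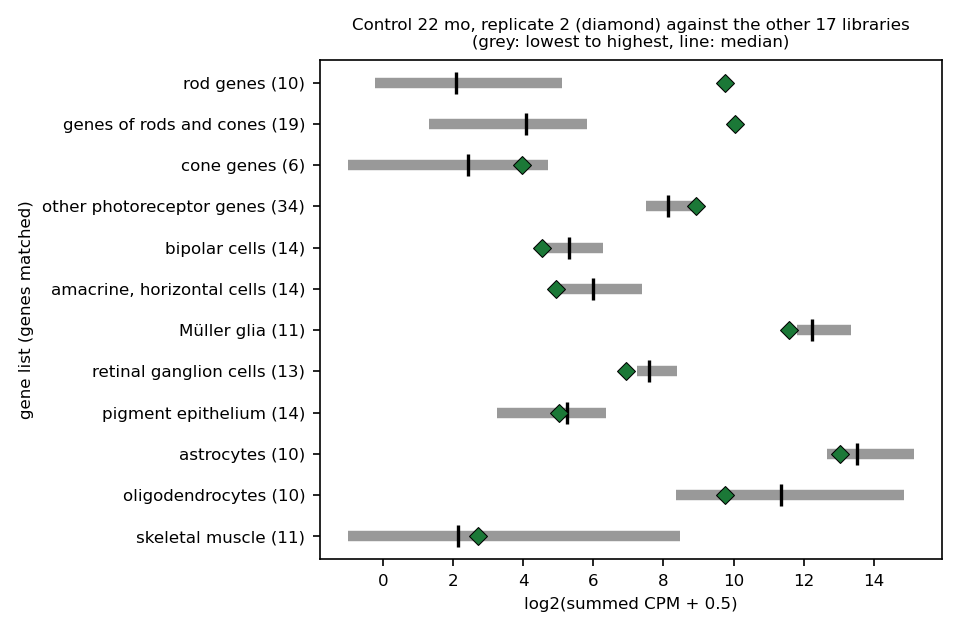
Summed level of each gene list as log2(CPM + 0.5), with the number of matched genes in brackets: diamonds are 22-month control replicate 2, grey bars run from the lowest to the highest of the other 17 libraries, and black lines mark their median. The diamonds lie right of the bars for the rod and shared genes (861 and 1050 CPM) and just left of the lower end for bipolar, amacrine and horizontal, Müller glia and ganglion cell genes.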

How the data were processed

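Per the labels' protocols, the authors made low-input full-length cDNA, tagmented it into libraries that keep no strand, sequenced read pairs, used STAR to align them and RSEM to estimate abundance. The submitters' processing notes name GRCm39; tool versions and the annotation: not given in the sources used here. The deposited gene and isoform tables hold the authors' expected counts (3.59% of gene values not whole) and the authors' TPM values. Symbols came from GENCODE M21 on GRCm38 for 52083 of 55416 identifiers; unmatched identifiers stayed in totals and tests.

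CPM was the expected count over the library total (13097498 to 18488733), scaled to 1000000; intervals are Clopper-Pearson and cover counting error only. Rounded counts were filtered with filterByExpr, scaled by TMM and fitted with 1 mean per labelled group in edgeR 4.0.16 (R 4.3.3), quasi-likelihood, two-sided, Benjamini-Hochberg at 0.05. limma 3.58.1, DESeq2 1.42.0, other scalings and filters, and leaving out libraries were alternatives; leaving out 3 libraries together and rescaling the lists were chosen after seeing the data. The fit was tested on simulated data. The members and lists were chosen with earlier results of these data known. Members were named as cone genes, by smallest p (2 each way), or by TPM rank within a role (the 2 highest). That rank was taken in the library with the largest rod sum. Non-members were the 10 with the highest ratio in the same library, and 2 per list. Some genes this rule selected are not reported here.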

Additional observations from a re-analysis of the deposited data

Results flagged for a closer look

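Within groups of 5 libraries, the gap between an extreme library and its nearest neighbour was compared with the range of the group by Dixon's criterion. Of 67 gene-and-group sets tested, 40 had a library that stood apart. Chance flags about 1 in 20 groups where values are normally spread, and sets share libraries, so they are not independent. In many sets the other libraries were at 0, where any value above 0 stands apart. The genes were the named members, many of them named for a high TPM in 22-month control replicate 2. The flags of that library thus follow in part from the choice of genes.

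Among the 22-month controls, replicate 2 was the library that stood apart in 20 sets. Its rod sum was 861 CPM and its sum over the genes of rods and cones was 1050 CPM. Gnat1 was at 618 CPM, Guca1b at 443 CPM, Rbp3 at 425 CPM and Pde6g at 131 CPM. Pde6b was at 77.0 CPM, Prph2 at 69.0 CPM, Sag at 28.7 CPM, Rp1 at 23.3 CPM and Rcvrn at 20.9 CPM. Gucy2e was at 12.6 CPM, Pde6h at 7.66 CPM, Nrl at 7.51 CPM, Slc24a1 at 6.70 CPM and Nr2e3 at 6.11 CPM. Cnga1 was at 4.93 CPM, Aipl1 at 3.83 CPM, Impg1 at 3.17 CPM and Impg2 at 1.77 CPM.

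Among the 12-month EDA libraries, replicate 1 stood apart in Prph2 (4.65 CPM), Opn1mw (1.41 CPM), Rp1 (1.34 CPM), Impg1 (1.13 CPM), Pde6h (0.634 CPM) and Cnga1 (0.211 CPM). Replicate 2 stood apart in Pde6g (2.15 CPM), Rcvrn (1.66 CPM) and Slc24a1 (0.139 CPM, which is 2 reads and under the 3-read floor). Replicate 5 stood apart in Pde6b (4.26 CPM) and Nr2e3 (1.88 CPM). Replicate 4 was low in Gnb1, at 119 CPM.

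Among the 12-month controls, replicate 1 stood apart in Rbp3 (14.9 CPM), Pde6b (9.61 CPM) and Nrl (0.710 CPM), and replicate 2 in Gucy2e (4.05 CPM) and Pde6g (1.99 CPM). Replicate 4 stood apart in Prph2 (0.556 CPM) and Rcvrn (0.445 CPM), and replicate 5 in Gnat2 (0.677 CPM).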

How the results depend on the processing

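Leaving out each library in turn gave 0 members called in every contrast, as did every other setting except DESeq2, which called 1 member (Rp1) in the EDA contrast at 12 months, the age contrast of controls and the interaction; 9 of its 14 member adjusted p-values were NA. Over leaving out each library, the median log2 difference of the tested members ranged from -3.26 to 1.83 (EDA contrast, 22 months), -0.34 to 0.73 (EDA contrast, 12 months), -0.33 to 5.33 (age, controls), 0.04 to 1.34 (age, EDA) and -4.33 to 1.73 (interaction). In the EDA contrast at 22 months Gnat1 ranged from -4.58 to 3.14, Pde6g -9.32 to 2.77, Guca1b -4.52 to 2.87, Rbp3 -2.70 to 1.83, Pde6b -4.67 to 6.96, Prph2 -3.11 to 2.86 and Rom1 -0.15 to 0.87. In the age contrast of controls Gnat1 ranged from -1.16 to 5.81, Pde6g -1.71 to 11.88, Guca1b -0.33 to 6.79, Pde6b -7.96 to 7.04, Abca4 -0.78 to 0.62 and Opn1sw -0.57 to 0.41. At 12 months Pde6b ranged from -7.94 to 2.51 and Gnb1 -0.35 to 0.022; between EDA ages Opn1sw ranged from -0.049 to 1.67; in the interaction Rom1 ranged from -0.47 to 0.54. Of 34 member values, 17 changed sign when some library was left out.

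With limma's quality weights the EDA contrast at 22 months reversed for Gnat1 (0.61), Pde6g (0.15), Guca1b (1.33), Rbp3 (2.93), Pde6b (3.81) and Prph2 (2.55), and also for Gucy2e, Rp1 and Sag, the age contrast of controls for Gnat1 (-0.10), Abca4 (2.21), Opn1sw (1.51) and Pde6b (-1.32), with Gucy2e and Sag, and Opn1sw reversed between EDA ages (-0.10) and in the interaction (-1.60). Without the 3 libraries that stood apart, a setting chosen after seeing the data, the EDA contrast at 22 months reversed for Gnat1 (2.07), Guca1b (3.12), Rbp3 (2.02), Pde6b (6.65) and Prph2 (3.13), at 12 months for Gnb1 (0.022), and the age contrast of controls for Gnat1 (-1.16), Pde6g (-1.72), Guca1b (-0.33) and Pde6b (-7.95). Counting all fitted members, 9 of 14, 3, 6, 2 and 5 changed sign with limma in the EDA contrasts at 22 and 12 months, the age contrasts of controls and EDA, and the interaction, and 7, 2, 7, 4 and 6 without the 3 libraries. Between EDA ages the 4 were Gnat1, Pde6b, Pde6g and Rp1. The cause was not tested.

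The rod ratio of 25.2 between the highest and the next library was 22.0 in TPM, 15.2 by the median of CPM + 0.5, 35.9 without ENSMUSG00000119584 and mitochondrial genes in the total, 33.5 with TMM totals and 2.34 with Gnb1 in the sum. The cone ratio of 1.57 was 1.16 without those genes, with 22-month control replicate 2 as the next library. By the median of CPM + 0.5 it was 1.63, but for other libraries, 12-month EDA replicate 1 over 22-month EDA replicate 1. Without Opn1sw it was 3.75, when 22-month control replicate 2 was the highest. No paired analysis was possible because the labels give no replicate numbers. Counts near the 3-read floor limit most members outside 22-month control replicate 2, and genes filtered out, such as Rcvrn without that library, could not be fitted.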
